A study of Mus musculus with 13 samples.

Results

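The mRNA levels of 10 apolipoprotein genes (Apoa1, Apoa2, Apoa4, Apoa5, Apob, Apoc1, Apoc2, Apoc3, Apoe and Apoh), chosen by gene symbol out of the 27141 genes of the count table, were followed in damaged hepatocytes (dHeps). The dHeps came from the livers of wild-type (WT) mice injured with carbon tetrachloride (CCl4), and all groups shared a culture of 16 days in a serum-free hepatocyte medium. The control groups received either the solvent dimethyl sulfoxide (DMSO) or a cocktail of 5 compounds (5C). In the remaining groups 1 compound was left out: GSK429286A in 5C-G, which inhibits ROCK; CID755673 in 5C-C, an inhibitor of protein kinase D; ETC-1002 in 5C-E, which activates AMPK; forskolin in 5C-F, an activator of adenylate cyclase; or Salidroside in 5C-S, a glycoside from plants. Each group had 2 libraries, called A and B, except 5C-S with 1. The study's methods describe its replicates as biological, while the labels do not say whether the 2 libraries of a group came from separate animals or separate cultures, so the p-values measure the spread between these libraries. The cells were a primary isolate from injured liver rather than a purified line, and the age and sex of the mice are not given in the labels. The study's methods give an age range for its injured mice and describe both sexes, without tying either to these libraries.

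Apolipoproteins are the protein parts of lipoprotein particles, the carriers of cholesterol and triglyceride in plasma, and the liver is their main source. Apolipoprotein B is the scaffold of very low density lipoprotein (VLDL), apolipoproteins A-I and A-II are the main proteins of high density lipoprotein (HDL), and the small C apolipoproteins move between particles and govern how fast their triglyceride is hydrolysed. Apolipoprotein E is the ligand by which the liver takes up remnant particles, and it is made by macrophages as well as by hepatocytes.

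Total counts per library ran from 30195867 to 45491932. Albumin mRNA, the defining hepatocyte transcript, stood at a mean of 2421 FPKM or more in every group, where FPKM is the count scaled by gene length and library total. Markers of macrophages were present as well and differed widely between groups. The 12 macrophage markers summed to 5187 and 5256 FPKM in DMSO and to 555 and 645 FPKM in 5C. Stellate cell and fibroblast markers summed to between 799 and 1773 FPKM and cholangiocyte markers to between 1457 and 3425 FPKM over all libraries. Endothelial markers summed to at most 34.7 FPKM, neutrophil markers to at most 4.25 FPKM, B cell markers to at most 0.269 FPKM and the T cell marker Cd3e to at most 0.027 FPKM. In these bulk libraries, fewer cells of a type and less RNA per cell cannot be told apart. In each of the 4 groups with 1 compound left out and 2 libraries, the pair differed more for several apolipoprotein genes, Apoe among them, than the pair of DMSO did.

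Of the 10 genes, 9 had between 179 and 479066 counts in every library. Apoc2, whose product activates lipoprotein lipase, had only 0 to 51 counts. A second gene on the same strand, Apoc2l, covers 41.6% of the exonic bases of Apoc2 in the GRCm39 annotation and is not listed in the count table. Reads of the 2 genes cannot be told apart where they overlap, and no fold change is given for Apoc2. It passed the filter on low counts, which asks for about 10 counts in as few as 1 library. Antisense genes cover part of Apoa4, leaving 30.2% of its exonic bases free of other genes, and smaller parts of Apoa2, Apoa5, Apoe, Apoh and Apob. The strand setting of the counting is not given in the sources used here, so reads from these genes and their antisense partners cannot be told apart.

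Most of the genes lie in clusters. On GRCm39, Apoa1 (chr9:46139878-46142212, plus strand) and Apoc3 (chr9:46142527-46146934, minus strand) are 314 bases apart and end towards each other. Apoa4 (chr9:46151994-46154757) and Apoa5 (chr9:46179931-46183217) follow on the plus strand. Apoc2 (chr7:19405504-19411877), Apoc1 (chr7:19422540-19427328) and Apoe (chr7:19430034-19434947) lie together on the minus strand of chromosome 7. Apoa2 (chr1:171049125-171053948), Apoh (chr11:108233964-108305232) and Apob (chr12:8027648-8066835) stand alone, all on the plus strand.

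Promoter sequences were read from a RefSeq table of the earlier build GRCm38.p6, from 250 bases before to 50 bases after each annotated start, which matched 8 of the 10 genes by symbol (Apoc1 and Apoc3 had no entry). They were searched on both strands for the core letters of sites of 2 kinds of liver factor and of the cAMP response element. The letters were CAAAGNNCA for HNF4, TGTTTAC for the FOXA factors and TGACGT for the cAMP response element, where N is any base. Of all 32851 promoters of the table, 6.36% held the HNF4 letters, 3.65% the FOXA letters and 7.51% the cAMP response letters. The 4 promoters below belong to the pair of members with the most similar levels (Apoa2 and Apoh), to the scaffold gene Apob and to Apoa1, which changed differently. Each runs 5′ to 3′ on the gene's strand with matches in capitals.
Apoa2, chr1:171224804-171225103, plus strand: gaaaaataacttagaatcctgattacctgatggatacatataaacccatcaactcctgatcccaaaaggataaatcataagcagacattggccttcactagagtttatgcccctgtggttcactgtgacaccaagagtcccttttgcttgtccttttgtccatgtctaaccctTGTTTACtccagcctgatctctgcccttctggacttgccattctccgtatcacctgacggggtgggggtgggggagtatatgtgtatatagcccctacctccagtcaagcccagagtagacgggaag
Apoh, chr11:108395047-108395346, plus strand: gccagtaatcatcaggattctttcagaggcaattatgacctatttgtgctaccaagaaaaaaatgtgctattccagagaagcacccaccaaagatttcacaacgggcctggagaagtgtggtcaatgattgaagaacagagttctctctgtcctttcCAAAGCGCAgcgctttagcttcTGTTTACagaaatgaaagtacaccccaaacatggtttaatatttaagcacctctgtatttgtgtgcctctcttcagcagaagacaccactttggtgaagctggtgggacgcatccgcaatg
Apob, chr12:7977427-7977726, plus strand: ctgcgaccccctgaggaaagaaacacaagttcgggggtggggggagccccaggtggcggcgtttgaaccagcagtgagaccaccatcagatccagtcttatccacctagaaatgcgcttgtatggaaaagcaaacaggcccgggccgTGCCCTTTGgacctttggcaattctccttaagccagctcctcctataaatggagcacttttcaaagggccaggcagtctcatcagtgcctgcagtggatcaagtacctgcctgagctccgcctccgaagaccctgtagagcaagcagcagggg
Apoa1, chr9:46228380-46228679, plus strand: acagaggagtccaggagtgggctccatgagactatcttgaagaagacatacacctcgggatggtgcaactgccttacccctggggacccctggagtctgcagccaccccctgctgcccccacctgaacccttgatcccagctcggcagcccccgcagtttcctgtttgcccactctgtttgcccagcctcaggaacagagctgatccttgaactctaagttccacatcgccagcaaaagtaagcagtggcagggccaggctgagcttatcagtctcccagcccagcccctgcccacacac
The capitals mark FOXA letters in Apoa2 at -77 to -71 from the start, HNF4 letters at -93 to -85 and FOXA letters at -71 to -65 in Apoh, and the HNF4 letters in Apob at -103 to -95, where they read on the opposite strand. The Apoa4 promoter held the HNF4 letters as well, at -182 to -174, and 1 of the Apoe windows held the FOXA letters on the opposite strand at -5 to 1. None of these 3 sets of letters occurred in the Apoa1 window shown, in either Apoa5 window or in the other Apoa2 window. The cAMP response letters occurred in no member's window. These matches describe the letters of the windows and say nothing of binding.

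Apoe and Apoa1 were the most abundant members on the FPKM scale, which corrects for length. Apoe ranged from a mean of 763 FPKM in 5C to 5144 FPKM in 5C-G, and Apoa1 from 670 FPKM in 5C-E to 2637 FPKM in 5C-F. Apoa2, Apoc3, Apoh and Apoc1 lay between 35.1 and 573 FPKM as group means. Apob and Apoa4 lay between 9.40 and 50.6 FPKM, and Apoa5 between 2.31 and 13.2 FPKM. Together the 10 genes took from 0.280% (5C-E A) to 1.76% (5C-G B) of the counts of a library.

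**Figure D1:**
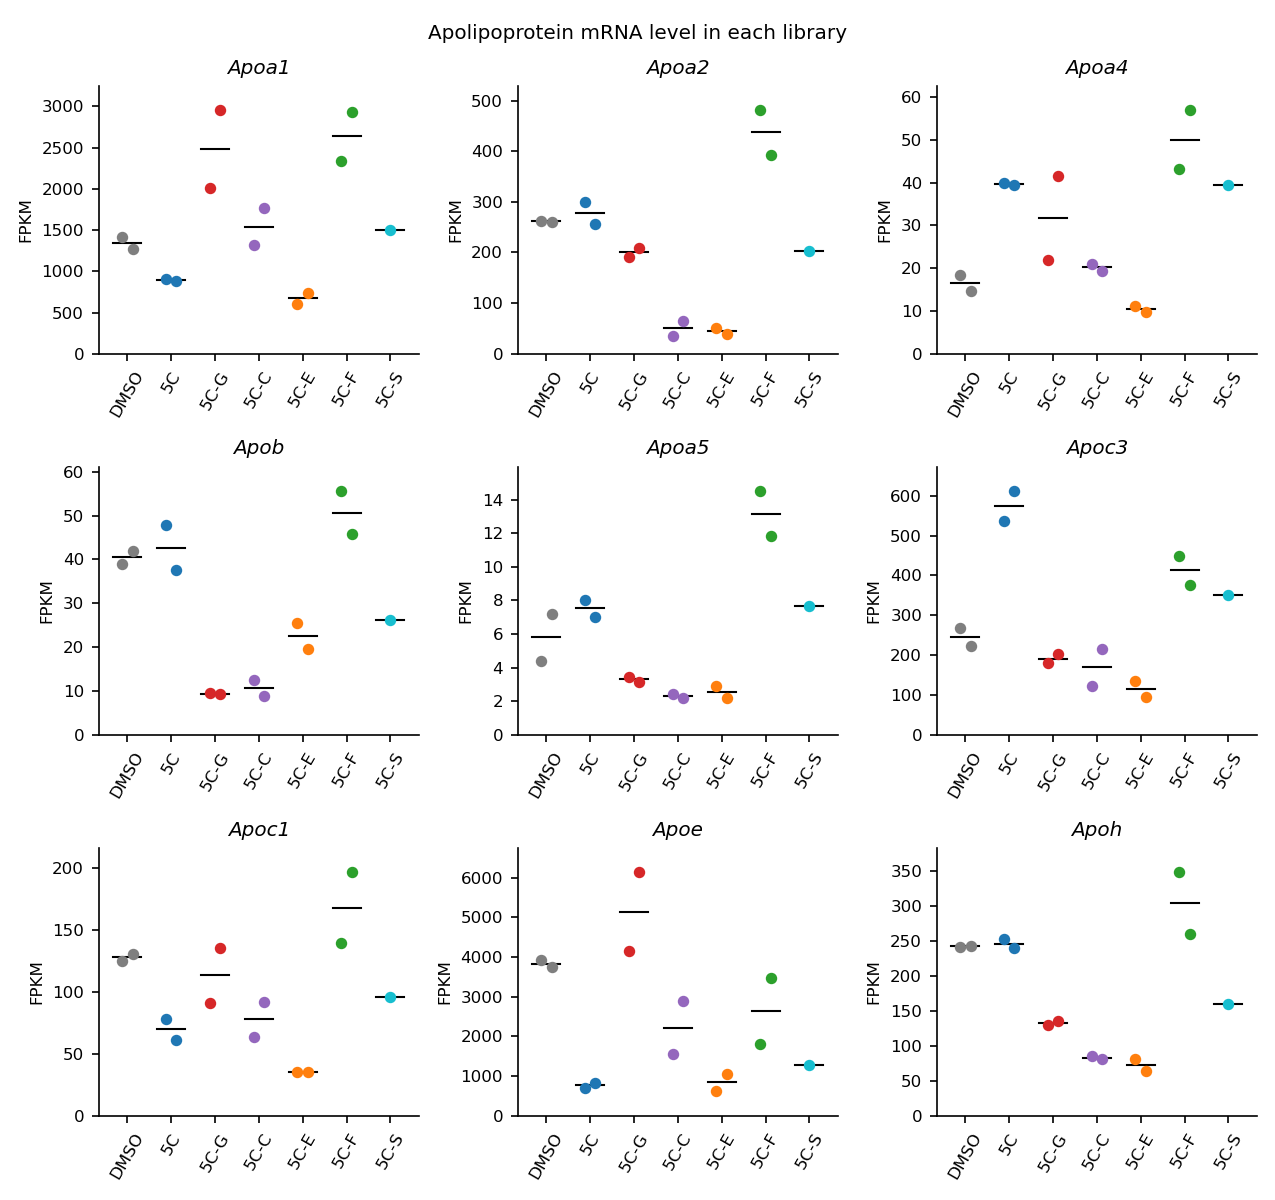
FPKM of 9 apolipoprotein genes in each of the 13 libraries, in 7 groups on the horizontal axis, with a point for each library and a line at the group mean. Most genes were lowest in 5C-E and highest in 5C-F, whereas Apoe was lowest in 5C and 5C-E and highest in 5C-G.

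The comparison of 5C with DMSO asks what the whole cocktail did to these genes. Apoe fell, Apoa4 and Apoc3 rose, and the VLDL scaffold gene Apob, the HDL gene Apoa2 and Apoh stood at nearly equal levels in the 2 groups. Differences were tested with edgeR's quasi-likelihood test in 1 fit of all 13 libraries, and a gene was called at a Benjamini-Hochberg adjusted p under 0.05 with a log2 fold change beyond 1. Of the 10 members 3 were called, against 4.55% of all 19884 genes tested, 2 of them higher (1.66% of all genes) and 1 lower (2.89%).
Apoe mRNA stood at 3918 and 3752 FPKM in DMSO and at 710.4 and 816 FPKM in 5C. Both 5C libraries lay far below both DMSO libraries, and the fitted log2 difference was -2.40 ± 0.33 (SE; edgeR adjusted p = 0.00011), which is 5.28-fold lower. Apoc1, its neighbour on chromosome 7 and an inhibitor of remnant clearance, was at 125 and 130.3 FPKM in DMSO and 78.1 and 61.3 FPKM in 5C. Its difference of -0.95 ± 0.24 on the log2 scale passed the adjusted p (0.0246) and missed the fold threshold.
Among the HDL genes, Apoa1 was at 1415 and 1273 FPKM in DMSO and 907 and 879.9 FPKM in 5C, and this difference of -0.66 ± 0.22 did not pass (edgeR adjusted p = 0.086). Apoa2 showed 262 and 261 FPKM in DMSO and 300.0 and 257 FPKM in 5C, with overlapping libraries. Apoa4, an apolipoprotein of HDL and chylomicrons, showed 18.5 and 14.7 FPKM in DMSO against 39.9 and 39.6 FPKM in 5C. It rose by 1.19 ± 0.26 on the log2 scale (edgeR adjusted p = 0.00856).
Apoc3, an inhibitor of lipoprotein lipase, was at 269 and 224 FPKM in DMSO and at 536 and 611 FPKM in 5C, a rise of 1.14 ± 0.25 (edgeR adjusted p = 0.00856). Its groups did not overlap. Apoa5, which promotes triglyceride hydrolysis, showed 4.39 and 7.21 FPKM in DMSO and 8.01 and 7.03 FPKM in 5C. It did not pass (0.30 ± 0.26, edgeR adjusted p = 0.625), and its log2 difference was 0.00052 without DMSO A and 0.70 without DMSO B. Apob was at 39.0 and 41.9 FPKM in DMSO and 47.9 and 37.5 FPKM in 5C, and Apoh, which encodes the phospholipid-binding plasma protein beta-2-glycoprotein I, at 242 and 243 FPKM against 253 and 239 FPKM. For both genes the log2 difference was at most 0.05 in size with an SE of 0.20 for Apob and 0.19 for Apoh.
The call of Apoe held with each library left out. That of Apoa4 was lost without DMSO B (edgeR adjusted p = 0.154), without 5C A (0.0563) or without 5C B (0.0632), and that of Apoc3 without DMSO B (0.145) or without 5C B (0.0977), while their log2 fold changes stayed at 1.02 or above.

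Leaving out GSK429286A moved the members in both directions. Apoe and Apoa1 rose while Apob, Apoc3 and Apoa5 fell relative to 5C, and 5 of the 10 members were called against 13.1% of all genes, 2 higher (7.47% of all genes) and 3 lower (5.64%). Apoe reached 4155 and 6133 FPKM in 5C-G, above both 5C libraries, with a log2 difference of 2.91 ± 0.34 (edgeR adjusted p = 1.53e-05). Apoa1 reached 2009 and 2952 FPKM, higher by 1.63 ± 0.22 (adjusted p = 6.78e-05), and Apoc1 reached 91.1 and 136 FPKM, higher by 0.86 ± 0.24, which passed the adjusted p (0.0159) without the fold. All 3 of these genes were higher in library B of 5C-G than in library A, and without 5C-G B the Apoc1 difference was 0.43 (adjusted p = 0.293). Apoc1 was called without 5C-G A (1.19, adjusted p = 0.0011) or without 5C A (1.02, adjusted p = 0.0495).
Apob was at 9.41 and 9.39 FPKM in 5C-G. This was the lowest group mean of Apob, although library B of 5C-C was lower at 8.88 FPKM and those groups did not differ past the test (0.21 ± 0.20, edgeR adjusted p = 0.577). It was 4.12-fold below 5C (-2.04 ± 0.21 on the log2 scale, edgeR adjusted p = 3.61e-06). Apoc3 was at 179 and 203 FPKM and fell by 1.45 ± 0.26 on the log2 scale (adjusted p = 0.000696). Apoa5, at 3.46 and 3.17 FPKM, fell by 1.05 ± 0.26 (adjusted p = 0.00732), and this call was lost without 5C A (adjusted p = 0.0632) and with limma on log2(FPKM + 1) (-0.98). Apoh, at 129 and 135 FPKM, differed by -0.76 ± 0.19 (adjusted p = 0.00697), under the fold threshold. Apoa2 (191 and 209.6 FPKM) and Apoa4 (22.0 and 41.5 FPKM) did not pass, with log2 differences of -0.33 ± 0.24 and -0.16 ± 0.26, and the libraries of Apoa4 overlapped those of 5C. Without 5C-G A the Apoa4 difference was 0.29 (adjusted p = 0.324), and without 5C-G B it was -0.81 and passed the adjusted p (0.024) under the fold threshold.
With an offset for GC content and gene length, the Apoa1 difference was 1.03 in place of 1.63 and that of Apob -1.38 in place of -2.04, and both remained called. Apoh became called (-1.13, adjusted p = 0.000503), Apoa4 stood at -0.78 (adjusted p = 0.0128), and Apoc1 no longer passed (0.47, adjusted p = 0.0682).

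Leaving out CID755673 lowered 5 members relative to 5C while Apoe rose. Of the 10 members 6 were called against 20.2% of all genes, 1 higher (9.65% of all genes) and 5 lower (10.5%). The median log2 difference of the 9 members without Apoc2 was -1.40, against 0 over all genes. Apoa2 showed the largest difference, with 35.6 and 64.5 FPKM in 5C-C against 300.0 and 257 FPKM in 5C, a fall of 2.30 ± 0.26 on the log2 scale (edgeR adjusted p = 1.47e-05). Apob was at 12.5 and 8.88 FPKM and fell by 1.84 ± 0.20 (adjusted p = 1.40e-05). The libraries of both genes lay well below every 5C library. Apoc3, at 122 and 216 FPKM, fell by 1.59 ± 0.26 (adjusted p = 0.000217), Apoa5, at 2.41 and 2.20 FPKM, by 1.54 ± 0.27 (adjusted p = 0.000343), and Apoh, at 84.7 and 81.4 FPKM, by 1.40 ± 0.19 (adjusted p = 6.70e-05).
Apoe was at 1558 and 2888 FPKM in 5C-C and thus between 5C and 5C-G, with a log2 difference from 5C of 1.71 ± 0.33 (edgeR adjusted p = 0.000689). Apoa1, at 1316 and 1765 FPKM, was higher than in 5C by 0.96 ± 0.22 (adjusted p = 0.00255), and Apoa4, at 21.1 and 19.4 FPKM, lower by 0.81 ± 0.26 (adjusted p = 0.0219). These 2 differences missed the fold threshold, but without 5C-C A that of Apoa1 was called (1.19, adjusted p = 0.00109). Apoc1 (63.5 and 92.1 FPKM) overlapped 5C and did not pass (0.33 ± 0.24, adjusted p = 0.313), with 0.61 without 5C-C A and 0.0034 without 5C-C B.
Several of these values moved with an offset for GC content and gene length. With it, the fall of Apob was 0.91 on the log2 scale (adjusted p = 0.000943) and the rise of Apoe 0.96 (adjusted p = 0.00565), both under the fold threshold. The Apoa1 difference was 0.13 (adjusted p = 0.53), that of Apoc1 was -0.24, and the fall of Apoa4 was 1.62 and called.

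Leaving out ETC-1002 lowered 6 members, while Apoe did not pass. Of the 10 members 6 were called and all 6 were lower, against 1.96% of all genes called in either direction and 1.31% called lower. The median log2 difference of the 9 members without Apoc2 was -1.63, against 0.0054 over all genes. Apoa2 was at 51.1 and 38.2 FPKM, a fall of 2.71 ± 0.26 on the log2 scale or 6.54-fold (edgeR adjusted p = 9.52e-06). Apoa4 was at 11.1 and 9.84 FPKM and fell by 2.00 ± 0.27 (adjusted p = 0.000274). Apoa1, at 606 and 734 FPKM, was the HDL gene that did not pass (-0.48 ± 0.22, adjusted p = 0.305), although both its libraries lay below both of 5C.
Apoc3 was at 135 and 93.7 FPKM and fell by 2.40 ± 0.26 (edgeR adjusted p = 4.01e-05), 5.28-fold below 5C. Apoh was at 81.0 and 63.4 FPKM and fell by 1.84 ± 0.19 (adjusted p = 2.19e-05). Apoa5, at 2.92 and 2.17 FPKM, fell by 1.63 ± 0.27 (adjusted p = 0.00172), and this call was lost without 5C-E B (adjusted p = 0.0756). Apob, at 25.6 and 19.5 FPKM, differed by -0.99 ± 0.20 (adjusted p = 0.00989), just under the fold threshold. It was called without 5C B (-1.11, adjusted p = 0.0387) or without 5C-E A (-1.16, adjusted p = 0.0242). These levels of Apob lay above those of 5C-G and 5C-C.
Apoc1 was at 35.2 and 34.9 FPKM, its lowest level in any group, and fell by 1.06 ± 0.25 (edgeR adjusted p = 0.025). That call was lost when any of the 4 libraries of the 2 groups was left out, with adjusted p from 0.0872 to 0.285. It was lost as well with total counts (-0.99) and with limma at both pseudocounts (-0.96 and -0.98, adjusted p = 0.0872 and 0.0848). Apoe was at 629 and 1064 FPKM, overlapping 5C, with a log2 difference of 0.08 ± 0.32 (adjusted p = 0.958). Its sign turned with the GC and length offset (-0.16), without 5C A (-0.037) or without 5C-E B (-0.35).

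Leaving out forskolin raised Apoe, Apoa1 and Apoc1. Of the 10 members 3 were called, all higher than in 5C, against 4.84% of all genes called in either direction and 2.69% called higher. Apoe was at 1799 and 3470.0 FPKM in 5C-F and rose by 1.87 ± 0.33 on the log2 scale (edgeR adjusted p = 0.00236). Apoa1 was at 2340.2 and 2933 FPKM and rose by 1.66 ± 0.22 (adjusted p = 0.000418). Apoc1, at 139.6 and 196 FPKM, rose by 1.36 ± 0.25 (adjusted p = 0.00305), and this call was lost without 5C B (adjusted p = 0.0712). The 5C-F libraries lay above both 5C libraries for all 3 genes.
Apoa5 was at 14.5 and 11.8 FPKM, its highest level in any group, and differed by 0.91 ± 0.26 (edgeR adjusted p = 0.0321) without reaching the fold threshold. Apoa2 (481 and 393 FPKM) differed by 0.76 ± 0.24 (adjusted p = 0.0572). Apoh (348 and 259.8 FPKM), Apoa4 (43.1 and 56.9 FPKM) and Apob (55.5 and 45.7 FPKM) differed from 5C by 0.41 ± 0.19, 0.43 ± 0.26 and 0.35 ± 0.20 and did not pass. The Apoh difference was 0.14 without 5C-F A and 0.64 without 5C-F B, that of Apob 0.16 without 5C-F A, and that of Apoa4 0.26 without 5C-F B. Apoc3, at 449 and 376 FPKM, was the single member with a lower value than in 5C among the 9, at -0.37 ± 0.25 (adjusted p = 0.367).

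**Figure D2:**
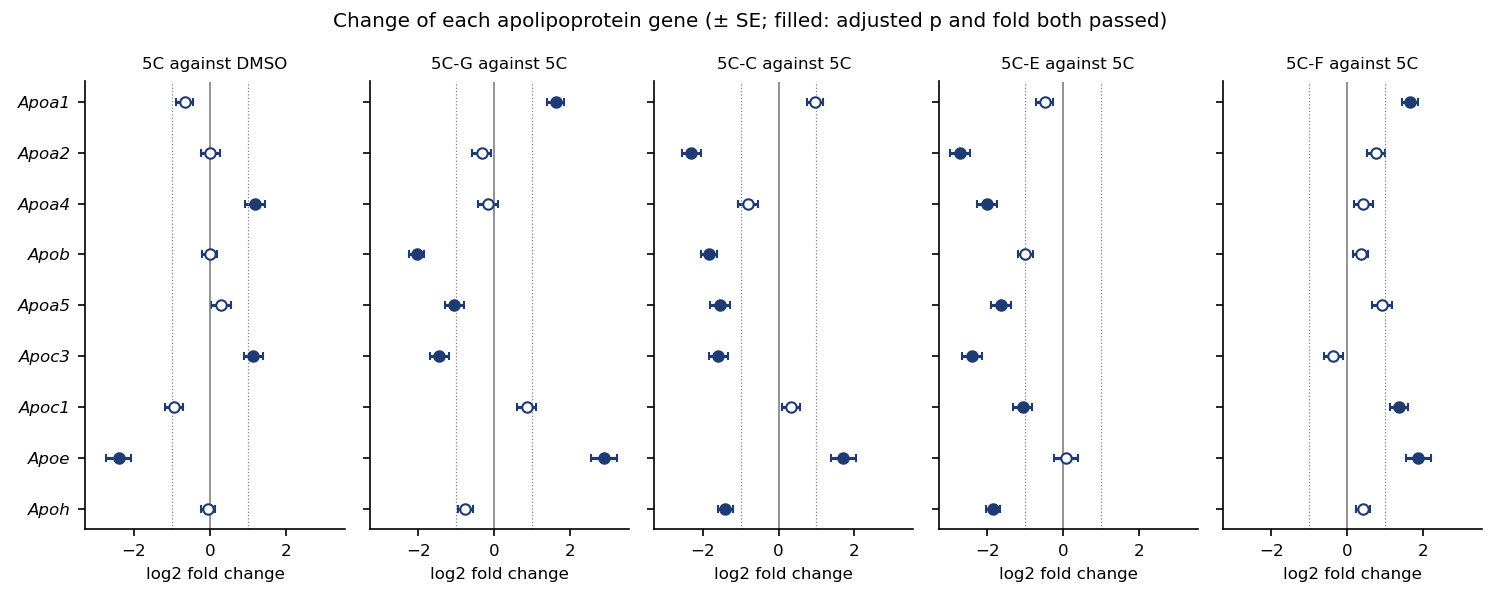
Log2 fold change (horizontal axis, ± SE of the fit) of 9 apolipoprotein genes in 5 comparisons, with filled points for called genes and dotted lines at a log2 fold change of 1 in either direction. Apoe was -2.40 with 5C and 2.91 without GSK429286A, and 6 genes fell without ETC-1002.

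The 5C-S group held a single library and was described without a test. Its log2 difference from the mean of the 5C libraries ran from -0.73 for Apoc3 (349.8 FPKM) to 0.74 for Apoa1 (1504 FPKM). None of the 9 members went past a log2 difference of 1, against 15.4% of all genes. Apoa1, Apoc1 (96.2 FPKM) and Apoe (1269.6 FPKM) lay above both 5C libraries, Apoa5 lay between them, and Apoa2, Apoa4, Apob, Apoc3 and Apoh lay below both. Apoa4 was nearly level with 5C, at a log2 difference of -0.025. The share of all genes outside the pair of 5C libraries was not counted, so these positions only describe the members.

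The same groups can be set against DMSO. These comparisons share the DMSO libraries with each other and the culture groups with those above. Without ETC-1002, 7 of the 10 members were called and all 7 were lower than in DMSO, against 6.09% of all genes in either direction and 3.68% lower. They were Apoa2 (-2.70 ± 0.26 on the log2 scale, edgeR adjusted p = 1.97e-06), Apoe (-2.32 ± 0.33), Apoc1 (-2.01 ± 0.25), Apoh (-1.89 ± 0.19), Apoa5 (-1.33 ± 0.26), Apoc3 (-1.26 ± 0.25) and Apoa1 (-1.15 ± 0.22). Apob (-0.99 ± 0.20) passed the adjusted p (0.00321) without the fold. Without 1 library the number called was between 5 and 7. Apoa1 lost its call without 5C-E A (-0.98, adjusted p = 0.0554), Apoa5 without DMSO B (adjusted p = 0.11) or 5C-E B (0.0719), and Apoc3 without DMSO A (0.0598) or 5C-E B (0.0875). With limma, Apoa1 lost its call at a pseudocount of 0.1 (-1.01, adjusted p = 0.0521) and Apoa5 at a pseudocount of 1 (-0.92). Apob was called without 5C-E A (-1.15, adjusted p = 0.0113).
Without CID755673, 4 members were called and all 4 were lower, against 22.1% of all genes in either direction and 11.7% lower. They were Apoa2 (-2.28 ± 0.26), Apob (-1.84 ± 0.20), Apoh (-1.45 ± 0.19) and Apoa5 (-1.24 ± 0.26). The Apoa5 call was lost without DMSO B (adjusted p = 0.051), and with the GC and length offset Apob stood at -0.94 and lost its call. With that offset Apoc1 (-1.21, adjusted p = 8.25e-05) and Apoe (-1.33, adjusted p = 0.000411) were called lower. Apoe, at -0.69 in the fit of all libraries, was -1.24 without 5C-C B (adjusted p = 0.0185, called) and -0.27 without 5C-C A (adjusted p = 0.583).
Without GSK429286A, 2 members were called against 5.83% of all genes, 1 higher (3.11%) and 1 lower (2.72%). Apob was lower by 2.04 ± 0.21 on the log2 scale (edgeR adjusted p = 2.00e-05). Apoa4 was higher by 1.03 ± 0.26 (adjusted p = 0.018), a call that was lost without 5C-G B (0.38, adjusted p = 0.412), without DMSO A (1.17, adjusted p = 0.107) or without DMSO B (0.87, adjusted p = 0.162). It was lost as well under each other scaling, filter or test tried except DESeq2, with log2 differences from 0.51 (GC and length offset) to 1.02. Apoa1 (0.96 ± 0.22, adjusted p = 0.0107) and Apoh (-0.81 ± 0.19, adjusted p = 0.0121) passed without the fold, and the Apoa1 difference was 0.55 (adjusted p = 0.171) without 5C-G B and called without 5C-G A (1.29, adjusted p = 0.000341). With the GC and length offset Apoh (-1.14) and Apoa5 (-1.09) were called lower. Apoe was 0.50 ± 0.32 above DMSO (adjusted p = 0.313), a value that was 0.084 without 5C-G B, 0.83 without 5C-G A and 0.074 with the offset.
Without forskolin, 2 members were called, both higher than in DMSO, against 7.40% of all genes in either direction and 3.18% higher. They were Apoa4 (1.61 ± 0.27, adjusted p = 0.000687) and Apoa5 (1.21 ± 0.26, adjusted p = 0.00468). The Apoa5 call was lost without DMSO A (adjusted p = 0.114) or without 5C-F A (0.0538). Apoa1 (0.99 ± 0.22), Apoc3 (0.77 ± 0.25) and Apoa2 (0.77 ± 0.24) passed the adjusted p without the fold, and Apoa1 was called without DMSO A (1.09, adjusted p = 0.0452), without 5C-F A (1.11, adjusted p = 0.0178), and, at 1.01 each, with DESeq2, with no filter, with at least 10 counts in every library and with only the libraries compared.

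Apoa1 and Apoc3 are neighbours on chromosome 9, and their FPKM ratio differed between groups. Apoc3 stood at 0.190 and 0.176 of the Apoa1 level in DMSO, at 0.591 and 0.694 in 5C, and at 0.0891 and 0.0686 in 5C-G. The ratios of 5C lay above those of every other library. The ratios of 5C-C were 0.0928 and 0.122, those of 5C-E 0.222 and 0.128, those of 5C-F 0.192 and 0.128, and that of 5C-S was 0.233. In 5C-G Apoa1 was called higher and Apoc3 lower than in 5C. In 5C-C and 5C-E Apoc3 was called lower and Apoa1 was not called (0.96 and -0.48), and its difference in 5C-C was 0.13 with the GC and length offset. On chromosome 7, the FPKM of Apoe was 9.10 and 13.3 times that of Apoc1 in 5C and 45.6 and 45.3 times in 5C-G.

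**Figure D3:**
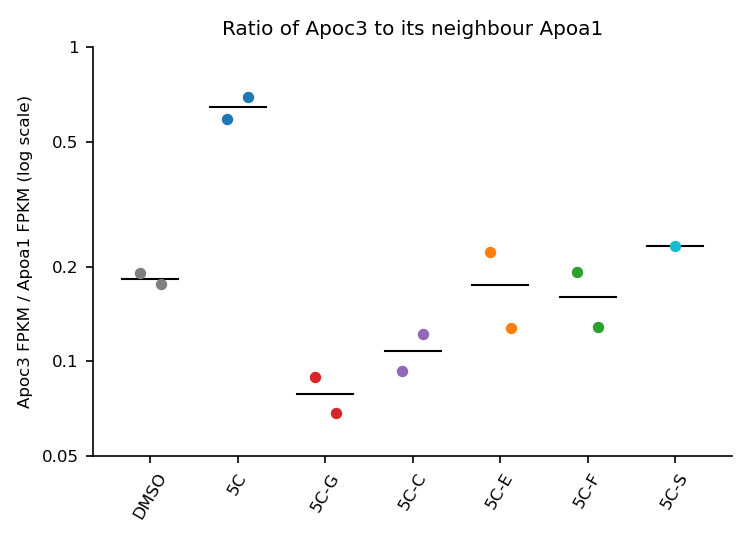
FPKM of Apoc3 divided by that of its neighbour Apoa1 (vertical log axis) in each of the 13 libraries by group, with a line at the group mean. Both 5C libraries, at 0.591 and 0.694, stand above all others, and both 5C-G libraries, at 0.0891 and 0.0686, are the lowest.

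Macrophage transcripts moved with Apoe in several comparisons. Of the 12 macrophage markers, 10 were called lower in 5C than in DMSO, against 2.89% of all genes. Against DMSO, 10 were also called lower in 5C-E (3.68% of all genes) and in 5C-C (11.7%), and 8 in 5C-F (840 of 19884 genes). Apoe was called lower than in DMSO in 5C-E, but not in 5C-C (-0.69) or 5C-F (-0.53). Relative to 5C, 10 markers were called higher in 5C-G (7.47% of all genes), 10 in 5C-F (2.69%) and 6 in 5C-C (9.65%). In 5C-E edgeR, DESeq2 and limma called 0 of them, and 4 had an unadjusted p under 0.05 in edgeR. Their summed FPKM was 5305 to 7511 in 5C-G, 1768 to 2113 in 5C-F, 1053 to 1749 in 5C-C, 749 to 885 in 5C-E and 666 in 5C-S. Clec4f and Timd4, both markers of resident Kupffer cells, were at most at a mean of 0.71 FPKM in any group and at 0 in 5C-S, and neither was called. Vsig4, Cd5l and Marco of the same list had means of 164, 48.2 and 16.5 FPKM in DMSO. In 5C-G their means were 127, 137 and 29.2 FPKM. Each was called lower in 5C than in DMSO and higher in 5C-G than in 5C. Lyz2, C1qa, C1qb and Cd68 made up most of the sum. Apoa1 and Apoc1 were also higher in 5C-G and 5C-F than in 5C. The part of macrophage transcripts in these differences was not tested.
Some hepatocyte markers moved with other members, while others did not. The 11 measured hepatocyte markers summed to 10917 and 12012 FPKM in DMSO, 11651 to 11880.0 FPKM in 5C and 16460.5 to 21619 FPKM in 5C-F. The sums were lower in the other groups, at 7255 FPKM in 5C-S, 5727 to 6234 FPKM in 5C-G, 4582 to 5759 FPKM in 5C-C and 3569 to 4263 FPKM in 5C-E. Alb alone made up 55.7% to 84.4% of the sum of a library. The other 10 markers summed to 2226 to 2443 FPKM in 5C, 2029 to 2326 FPKM in 5C-C, 1591 to 1752 FPKM in 5C-G, 1447 to 1544 FPKM in 5C-E and 3120 to 3364 FPKM in 5C-F, so that without Alb the libraries of 5C-C overlapped those of 5C. Against 5C, 7 of the 11 were called lower on removal of ETC-1002 (1.31% of all genes), 6 on removal of GSK429286A (5.64%) and 4 on removal of CID755673 (10.5%). On removal of forskolin 2 were called higher (2.69% of all genes), and on removal of GSK429286A 1 (7.47%). On removal of CID755673 Fga, Fgb and Fgg were higher by 0.56, 0.61 and 0.57 on the log2 scale, under the fold threshold. Their edgeR adjusted p-values were 0.0156, 0.0087 and 0.0161. In 5C against DMSO 1 marker was called higher (1.66% of all genes) and 2 lower (2.89%). Albumin mRNA (Alb) differed from 5C on the log2 scale by -2.03 in 5C-E, -1.50 in 5C-C, -0.99 in 5C-G and 0.85 in 5C-F. Whether the differences of Apoa2, Apoh, Apob, Apoa5 and Apoc3 go beyond those of hepatocyte transcripts in general was not tested.

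**Figure D4:**
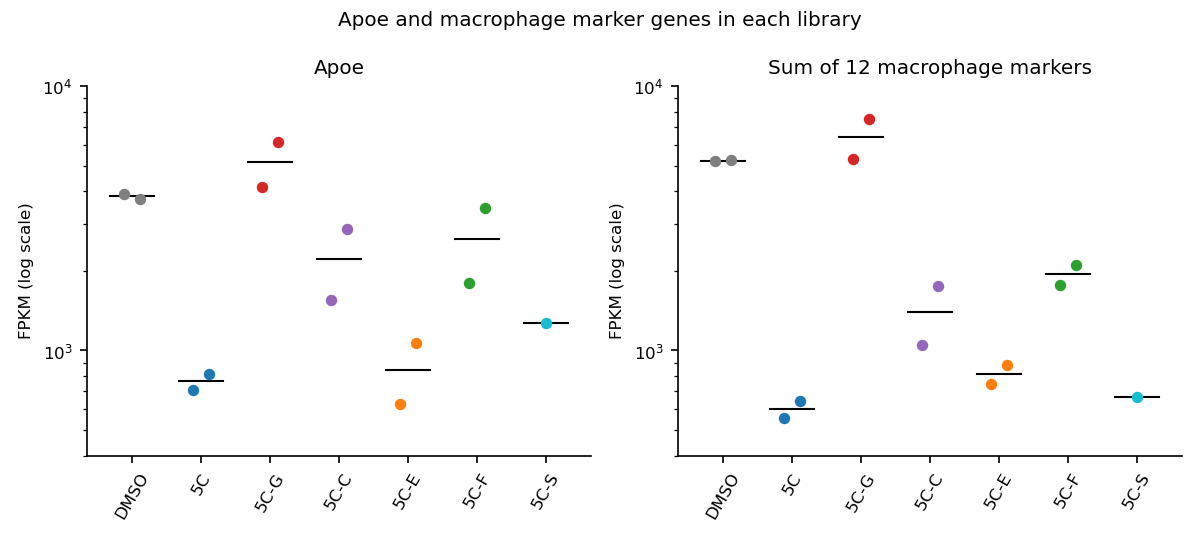
FPKM of Apoe (left) and the summed FPKM of 12 macrophage markers (right) in each library by group, on log axes, with a line at the group mean. Both quantities were lowest in 5C, 5C-E and 5C-S and highest in DMSO and 5C-G.

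The members were ordered over the 6 groups with 2 libraries by mean log2 CPM. Of the 45 pairs of neighbours in these orders (9 genes, 5 pairs each), 10 passed the adjusted p of the fit and the other 35 did not. For Apoe the order ran from 5C-G over DMSO, 5C-F, 5C-C and 5C-E to 5C, with a step that passed only between 5C-C and 5C-E (1.64 ± 0.32, edgeR adjusted p = 0.00161). For Apob it ran from 5C-F over DMSO, 5C, 5C-E and 5C-C to 5C-G, with steps that passed between 5C and 5C-E and between 5C-E and 5C-C (0.85 ± 0.20, adjusted p = 0.00458). For Apoa2 a single step passed, between 5C-G and 5C-C (1.97 ± 0.25, adjusted p = 6.09e-05), which left 5C-C and 5C-E together at the bottom. For Apoh the steps from 5C to 5C-G and from 5C-G to 5C-C passed. For Apoc3 the step from 5C-F to DMSO passed (0.77 ± 0.25, adjusted p = 0.0496), as did that from 5C-C to 5C-E (0.81 ± 0.25, adjusted p = 0.0237). For Apoa5 the step from 5C-F to 5C passed and for Apoc1 that from 5C to 5C-E. No step passed for Apoa1 or Apoa4. By mean FPKM, 5C-F was the highest group for 7 of the 9 genes and 5C-E the lowest for 6.

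Across the 13 libraries Apoh and Apoa2 were the most alike of the 9 members (Pearson r = 0.95 of log2 CPM), followed by Apoh and Apoa5 (0.91), and Apoc3 correlated with Apoh at 0.85. Apoa1 and Apoc1 had r = 0.89 and Apoa1 and Apoe 0.83. Apoe and Apob were the least alike, at -0.29. These values describe 13 libraries of 7 groups that share group means and depth, and not independent samples.
The nearest genes depended on the measure of likeness. With Spearman's rho in place of Pearson's r, 0 of the 3 nearest genes were the same for Apoa2, Apoa4, Apob and Apoe, 1 for Apoa1, Apoa5, Apoc1 and Apoh, and 2 for Apoc3. By Pearson's r, of all genes tested, those most like Apoh were Amy1 (0.99), Alb (0.98) and the urate oxidase gene Uox (0.97). Those most like Apoe were Tnfaip8l2 (0.97), the chemokine gene Ccl8 (0.97) and the lysosomal gene Ctsa (0.97). Apob was nearest to Abcc2, which encodes a canalicular transporter (0.98), Prox1 (0.98) and Tmem56 (0.97). Apoa2 was nearest to Inhbe (0.97), Apoa5 to Serpind1 (0.96), Apoc3 to the asialoglycoprotein receptor gene Asgr1 (0.95), Apoa1 to Sdccag3 (0.95), Apoc1 to Lect2 (0.94) and Apoa4 to the fatty acid binding protein gene Fabp1 (0.92).

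**Figure D5:**
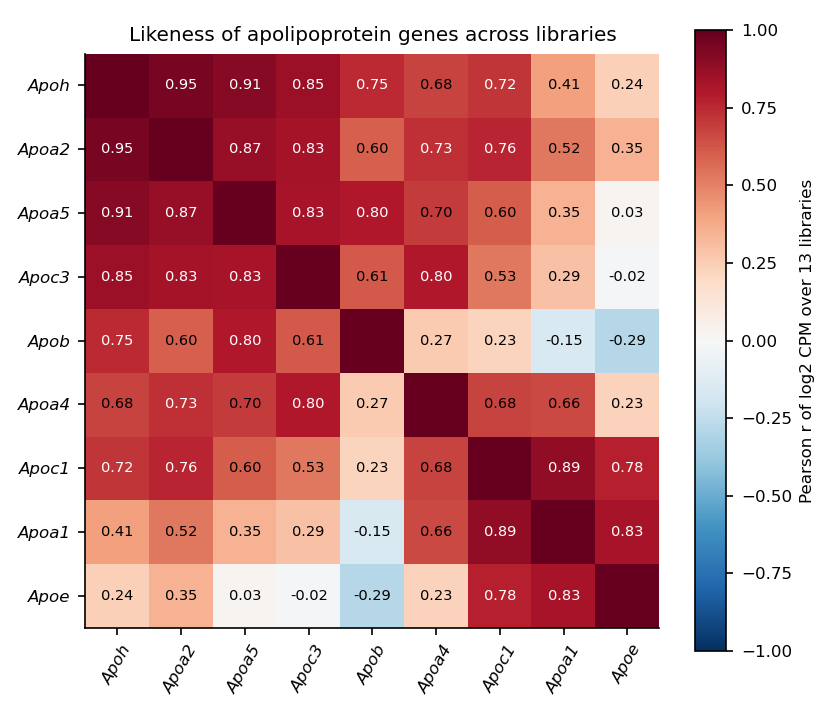
Pearson r between 9 apolipoprotein genes over log2 CPM of the 13 libraries, with the value in each cell and colour from -1 to 1. Apoh, Apoa2, Apoa5 and Apoc3 are alike at 0.83 to 0.95, and Apoe is nearest to Apoa1 (0.83) and Apoc1 (0.78).

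Other genes of lipoprotein metabolism were followed in fixed lists, whose counts are to be read against all genes called: 4.55% in 5C against DMSO and, against 5C, 20.2% in 5C-C, 13.1% in 5C-G, 4.84% in 5C-F and 1.96% in 5C-E. Of 9 other apolipoprotein genes measured, 1 was called in 5C against DMSO, and against 5C there were 5 calls in 5C-G, 4 in both 5C-C and 5C-F, and 3 in 5C-E. Apom, an HDL apolipoprotein that carries sphingosine 1-phosphate, rose by 1.92 in 5C-F (edgeR adjusted p = 0.0038). Apof fell in 5C-E (-1.32), 5C-C (-1.03) and, just past the fold threshold, 5C-G (adjusted p = 0.00162). Apoc4, next to Apoc2, rose by 1.55 in 5C-G (adjusted p = 0.0015) and by 1.13 in 5C-F (adjusted p = 0.026).
Of 9 genes of apolipoprotein B assembly and editing, 2 were called lower in 5C-G than in 5C, 2 lower and 1 higher in 5C-C. In 5C-E edgeR, DESeq2 and limma called 0, with 3 at an unadjusted p under 0.05, and in 5C-F edgeR and limma called 0 and DESeq2 called 1, with 2 at an unadjusted p under 0.05. The lower genes were Mttp, which loads lipid onto apolipoprotein B (-1.17 in 5C-G, adjusted p = 0.003, and -1.22 in 5C-C, adjusted p = 0.0014), and the editing cofactor gene A1cf (-2.55 and -2.63). The editing enzyme gene Apobec1 fell in 5C against DMSO by 1.30 (adjusted p = 0.00013).
Of 10 genes of HDL formation and remodelling, 2 fell in 5C against DMSO, the cholesterol exporter gene Abcg1 (-1.81) and the phospholipid transfer protein gene Pltp (-1.38). Against 5C, 3 fell in 5C-E, 2 in 5C-C and 1 in 5C-F, and in 5C-G 2 fell and 1 rose. The 2 calls of 10 in 5C-C were near the share of all genes (20.2%). The exporter gene Abca1, whose product lipidates apolipoprotein A-I, fell in 5C-C (-1.85) and 5C-E (-1.03), and Pon1, which encodes an HDL-bound esterase, in 5C-C (-5.67), 5C-E (-4.04) and 5C-G (-2.56). Lcat, whose product esterifies HDL cholesterol, fell by 1.14 in 5C-E.
Of 6 genes of lipoprotein lipase and its regulators that were tested, 2 were called lower than in 5C on removal of GSK429286A, 2 lower and 1 higher on removal of CID755673, and 2 lower on removal of ETC-1002. Gpld1, which encodes a phospholipase, fell in 5C-C (-2.51), 5C-G (-2.05) and 5C-E (-1.39). Lpl itself was called in none of the 5 comparisons. It passed the adjusted p under the fold threshold in 5C against DMSO (0.98, edgeR adjusted p = 0.0198) and in 5C-C against 5C (-0.91, edgeR adjusted p = 0.0076).
Of 11 lipoprotein receptor genes and regulators, 1 was called in 5C against DMSO, and against 5C 2 were called on removal of forskolin and 3 on removal of each of the other compounds tested. Vldlr fell by 1.20 in 5C-G. Apobr, a receptor of macrophages, fell by 2.46 in 5C against DMSO and rose by 3.09 in 5C-G.
Of 24 genes of transcription factors known to act on apolipoprotein genes, 1 was called in 5C against DMSO (Cebpa, which fell by 1.04). Against 5C, 10 were called in 5C-G (8 lower, 2 higher), 5 in 5C-C (3 lower, 2 higher) and 2 higher in 5C-F. The 5 calls in 5C-C were 20.8% of the list, near the share of all genes, while the 10 calls in 5C-G were 41.7%. In 5C-E edgeR and limma called 0 and DESeq2 called 1, with 9 at an unadjusted p under 0.05 in edgeR. Hnf4a fell by 1.05 in 5C-G (adjusted p = 0.00045), as did others of the list, among them Foxa1 (-1.94), Nr5a2 (-1.85), Ppara (-1.27), Rora (-1.01), Foxo1 (-1.47) and Onecut1, which had 2 and 4 counts in 5C-G. Nr5a2 (-1.01), Ppara (-1.43) and Foxo1 (-1.53) also fell in 5C-C. In 5C-E Hnf4a differed by -0.31 (adjusted p = 0.44) and Foxa3 by -1.02 (adjusted p = 0.065). In 5C-F Foxa3 rose by 1.17 and Nr1h3, which encodes the sterol sensor LXR alpha, by 1.31. The part of these factors in the differences of the apolipoprotein genes was not tested.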

How the data were processed

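RNA was made into libraries with the NEBNext Ultra kit and sequenced as paired ends on an Illumina NovaSeq instrument. Per the labels, the authors mapped reads to GRCm39, and their processing notes name featureCounts, Subread and DESeq2. The annotation release and strand setting are not given in the sources used here. The deposited tables hold raw whole-number counts per gene and the authors' FPKM values, which equalled the count divided by a gene length and the column total within 0.2% for 27140 genes. Columns left unused numbered 0. Column names gave the group, and their numbers did not match the labels' replicate numbers, so libraries were lettered in column order.

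All 13 libraries entered 1 fit in edgeR 4.0.16 (R 4.3.3) with TMM factors, filterByExpr by group (minimum count 10), the quasi-likelihood test and 6 residual degrees of freedom. It held 19884 genes. In counts simulated for 5C against DMSO over these genes, it called 94 of 100 genes changed by a log2 fold of 2 and 62 of 100 changed by 1.5, with 10 false calls. The changed genes were drawn from well-counted genes, and every gene was given the same dispersion, so genes with few counts or a larger spread are not described. The study's methods name DESeq, which is run here as an alternative (DESeq2 1.42.0), beside limma 3.58.1 on log2(FPKM + 1) and log2(FPKM + 0.1), other filters and scalings, an offset for GC content and length, and each library left out. Adjusted p-values are Benjamini-Hochberg values over all genes tested. All 10 members are named; of other lists the counts are given with examples, and the 3 genes most like each member were taken by Pearson r of log2 CPM. Members and lists were chosen with earlier results of these data known. Counts carry no molecular identifiers, so depth limits cover counting error only. The genes Apod, Tf, Clec4g and Cd3d of the lists were not analysed here. Some genes counted in the lists, and 1 further set of promoter letters, are not reported here by name. Gene positions were read from the GENCODE annotation of GRCm39 and promoters from RefSeq.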

Additional observations from a re-analysis of the deposited data

How the results depend on the processing

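With 2 libraries a group, the test rests on a spread shared by all groups, and when 1 library was left out the lone library was assumed to vary like the others. No paired analysis was run, because the labels do not say that equal replicate numbers in different groups mark a pair. The running numbers of the columns could not be matched to the labels with certainty. Of 81 differences (9 members in 9 comparisons), between 76 and 79 kept their direction and their side of the threshold under each of 7 other scalings, filters and tests, and 65 did with the offset for GC content and length. With 1 library left out, 284 of 324 did, 23 lost their call, 10 gained one and 7 changed sign. Scaling by total counts moved the median over all genes by -0.15 to 0.15 on the log2 scale in these comparisons.

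The number of members called in 5C against DMSO was 1 to 3 with 1 library left out (1 without DMSO B or 5C B). In 5C-G against DMSO it was 1 with total counts, no filter, at least 10 counts in every library, only the libraries compared or either limma fit, 4 with no fold threshold, and 1 to 3 with 1 library left out. In 5C-F against DMSO it was 5 with no fold threshold. The steps that passed in the orders of levels numbered 17 with no filter, 5 with limma at either pseudocount, 18 with the GC and length offset, and 6 to 13 with 1 library left out (6 without 5C A).

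Signs turned mainly where the difference was small. In 5C against DMSO, Apoa2 was -0.079 with the offset and -0.085 to 0.11 with 1 library left out. Apob was -0.0048 with DESeq2, -0.0011 with only the libraries compared, -0.034 with the offset, and -0.17 to 0.15 with 1 library left out. Apoh was 0.024 with total counts and 0.023 with both limma fits. With 1 library left out, Apoa4 in 5C-G against 5C was -0.81 to 0.29 (0.29 without 5C-G A), Apoc1 in 5C-G against DMSO -0.52 to 0.24 (0.24 without 5C-G A), and Apoe in 5C-E against 5C -0.35 to 0.44 (-0.037 without 5C A and -0.35 without 5C-E B). With the offset, Apoc1 in 5C-C against 5C was -0.24, Apoe in 5C-E against 5C was -0.16, and in 5C-C against DMSO Apoa1 was -0.45 (adjusted p = 0.019) and Apoa4 -0.32. The cause of these changes was not tested.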
